A study of Mus musculus with 19 samples.

Results

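The differences between placebo-treated Mat1a knockout liver and wild-type liver comprised 6721 CpG sites, which is every row of the authors' deposited table for this comparison. The 3 tables of the series together held 12334 rows at 8525 distinct positions. The first group was MAT1A WT liver with no treatment (8 mice) and the second was MAT1A KO liver from mice given placebo (6 mice), all aged 10 months. Placebo was given for 8 weeks per the series title. The wild-type mice received no placebo, so genotype and the placebo procedure cannot be told apart. The labels give neither the strain nor how the Mat1a allele was made.

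The product of Mat1a is the methionine adenosyltransferase of adult liver, the enzyme that joins methionine and ATP into S-adenosylmethionine (SAMe). DNA methyltransferases use SAMe as the donor of the methyl group that they place on cytosine, in mammals mostly where a C is followed by a G (a CpG). Methylated CpGs fill most gene bodies and intergenic DNA, whereas CpG-rich promoters (CpG islands) are mostly unmethylated in adult tissue. Liver is the main site of SAMe synthesis in the body.

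Methylation was read by reduced-representation bisulfite sequencing, in which DNA is cut with restriction enzymes and treated with bisulfite, so that only CpGs near a cut are seen. The enzymes were MspI, which cuts at CCGG, and TaqαI, which cuts at TCGA. A site was listed when its methylation differed by more than 20 percentage points, and the smallest absolute differences listed were 20.0005, 20.004 and 20.0047 points. The largest q-value listed was 0.00610. All differences below are in percentage points and are read as KO placebo minus WT, an order that the authors' deposited table does not state. If the order was the opposite, every direction turns round together. The table holds no methylation level, read coverage or value of any animal, so depth is unknown, no difference carries an SD, and the labelled tissue was not checked against its markers. The samples are labelled liver, with no cell sorting named, so a change in the share of a cell type and a change within cells cannot be told apart. For a CpG that is absent from the list, a difference below the thresholds and a lack of coverage cannot be told apart.

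The shape of the sites is easiest to see at gene starts, where the sequence is at hand. Of 32851 windows reaching from 250 bp before to 50 bp after an annotated start, 63 (0.192%) held a listed site, and they belonged to 60 genes, of which 36 code for protein. The windows below are the 3 of coding genes with the most listed sites, together with those of Bmp4 and Rara, regulators of development and of retinoid response. For Arhgef10l, 1 of 2 overlapping windows is shown. Sequences are from RefSeq (GRCm38.p6, the assembly that mm10 names), 5′ to 3′ in the direction of the gene, and capitals mark the listed CpGs.
Vwa7: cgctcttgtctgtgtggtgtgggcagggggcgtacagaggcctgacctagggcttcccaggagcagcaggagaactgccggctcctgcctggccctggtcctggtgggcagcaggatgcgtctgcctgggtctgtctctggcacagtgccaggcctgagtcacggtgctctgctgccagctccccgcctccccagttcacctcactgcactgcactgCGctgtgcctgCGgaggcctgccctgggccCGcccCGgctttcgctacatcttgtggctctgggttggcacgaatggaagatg
Chad: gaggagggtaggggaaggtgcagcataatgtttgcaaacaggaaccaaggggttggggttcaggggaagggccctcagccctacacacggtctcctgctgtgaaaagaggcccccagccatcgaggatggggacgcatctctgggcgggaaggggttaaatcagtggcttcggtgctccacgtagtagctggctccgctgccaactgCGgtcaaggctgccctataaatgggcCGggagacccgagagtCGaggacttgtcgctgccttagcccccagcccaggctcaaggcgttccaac
Arhgef10l: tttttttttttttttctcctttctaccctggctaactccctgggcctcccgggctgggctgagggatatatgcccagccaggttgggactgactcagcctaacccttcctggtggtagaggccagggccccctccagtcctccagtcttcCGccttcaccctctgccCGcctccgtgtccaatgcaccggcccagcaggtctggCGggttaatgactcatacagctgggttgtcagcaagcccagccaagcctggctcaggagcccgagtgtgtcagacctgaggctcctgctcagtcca
Bmp4: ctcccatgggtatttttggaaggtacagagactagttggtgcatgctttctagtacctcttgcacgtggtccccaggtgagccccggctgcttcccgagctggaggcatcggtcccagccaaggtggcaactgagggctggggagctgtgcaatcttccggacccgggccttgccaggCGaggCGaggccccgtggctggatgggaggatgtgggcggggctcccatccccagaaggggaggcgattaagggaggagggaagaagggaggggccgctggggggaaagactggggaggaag
Rara: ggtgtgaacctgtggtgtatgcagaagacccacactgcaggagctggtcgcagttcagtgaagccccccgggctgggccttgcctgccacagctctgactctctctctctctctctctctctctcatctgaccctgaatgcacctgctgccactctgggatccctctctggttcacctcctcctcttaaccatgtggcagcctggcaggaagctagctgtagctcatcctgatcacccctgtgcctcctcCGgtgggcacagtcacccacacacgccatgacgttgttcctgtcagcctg
Vwa7, which encodes a protein with a von Willebrand factor type A domain, had 4 lower sites in chr17:35016329-35016628 on the plus strand. Their differences were −26.9, −25.3, −24.7 and −44.8 in the authors' deposited table, so the site just after the start stood apart from the other 3. These sites also lie within 2 kb of Vars. Chad, the gene of the cartilage matrix protein chondroadherin, had 3 lower sites in chr11:94564797-94565096 (plus strand), at −31.7, −25.6 and −22.5 in the authors' deposited table, and they lie near Acsf2 as well. Arhgef10l, a guanine nucleotide exchange factor gene, had 3 in chr4:140665856-140666155 (minus strand), at −34.0, −28.6 and −32.5 in the authors' deposited table. Bmp4, a growth factor of the TGF-beta superfamily, had 2 lower CpGs in chr14:46390620-46390919 (minus strand) at −39.1 and −24.3 in the authors' deposited table. Rara encodes a retinoic acid receptor, and the CpG 1 bp past the start in its window (chr11:98939461-98939760, plus strand) was lower by 37.6 points, as −37.6 in the authors' deposited table. In each of these windows most CpGs were not listed. The Vwa7 window holds 12 CpGs, that of Chad 13, that of Arhgef10l 7, that of Bmp4 12 and that of Rara 5.

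Windows with a listed site had an intermediate number of CpGs. Among windows with 6 to 10 CpGs, 0.546% held a listed site, against 0.0131% of those with 0 to 2 CpGs, 0.195% of those with 3 to 5, 0.257% of those with 11 to 20 and 0.0982% of those with 21 or more. The median window with a listed site held 9 CpGs and the median of all windows 7. The MspI motif CCGG, which reads the same on both strands, occurred in 92.1% of the windows with a listed site and in 52.8% of all windows. TCGA, the TaqαI motif and also its own reverse complement, occurred in 39.7% and 22%. Those shares carry the reach of the assay as well as methylation. Among the windows that hold either motif, 0.841% of those with 6 to 10 CpGs and 0.101% of those with 21 or more held a listed site.

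**Figure D1:**
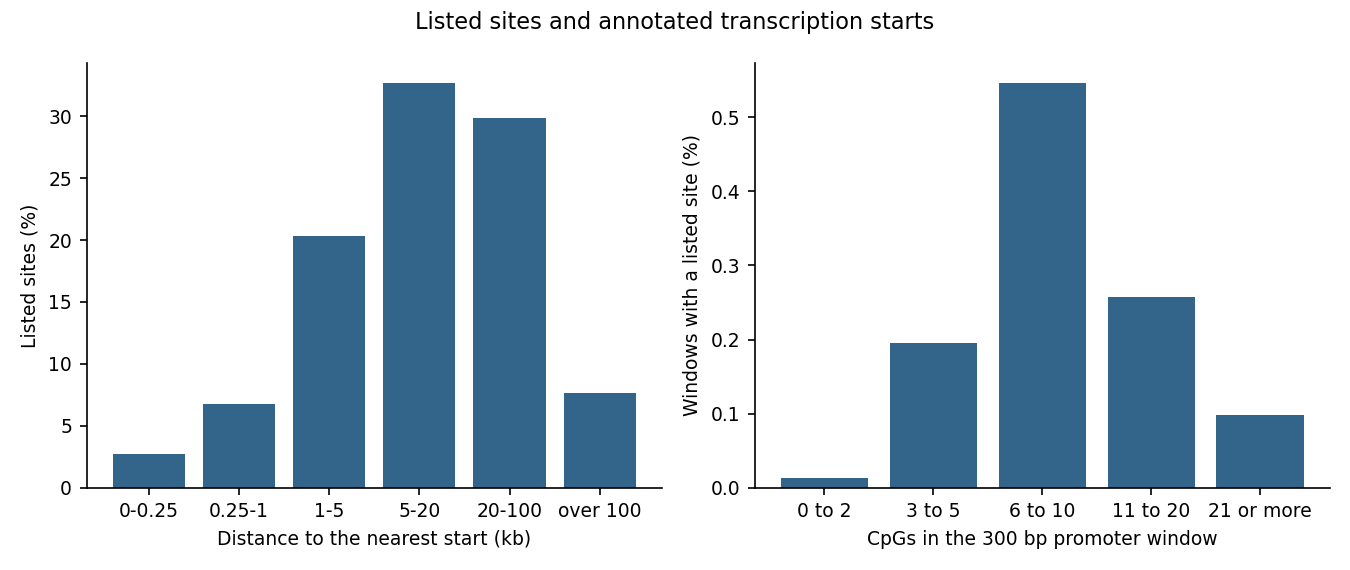
Left, share of the listed sites (y axis, percent) by distance to the nearest annotated transcription start (x axis, kb). Right, share of promoter windows with a listed site (y axis, percent) by number of CpGs in the window (x axis). The distance intervals differ in width, so bar heights do not show density. The starts used cover 17492 of 21887 coding genes, so distances are upper limits. Within 250 bp lay 2.74% of sites, and the windows with 6 to 10 CpGs stand highest at 0.546%.

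Most listed sites lay away from the annotated starts used, which cover 17492 of the 21887 coding genes. Sites of a gene without a start are measured to another gene's start, so the distances are upper limits. The median distance to the nearest start used was 12476.5 bp over the 6502 sites whose chromosome has such starts. Of these sites 178 (2.74%) lay within 250 bp of a start, 438 beyond that and within 1 kb, 2123 (32.7%) at 5 to 20 kb and 499 beyond 100 kb. These intervals differ in width, and per kb of distance the number of sites was highest next to starts. That count is not per base or per covered CpG. How much DNA and how many covered CpGs lie at each distance was not counted, so it shows no preference for starts. The size of the loss varied little with this distance: the median ran from −26.5 at 1 to 5 kb to −24.9 beyond 100 kb in the authors' deposited table. With the body of genes of known strand cut into 10 equal parts from start to end, part 1 held 13.7% of the site and gene pairs, part 5 8.26% and part 10 11.8%. Inside coding genes lay 4648 sites (69.2%), and 358 (5.33%) lay outside but within 2 kb of one. The other 1715 (25.5%) were farther away. A loss of at least 40 points was reached by 10.6% of the sites in genes, 7.26% of those in the 2 kb flanks and 6.06% of those farther away.

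A few genes carried several lower sites right at their start. Of the 17492 coding genes with an annotated start at hand, 275 had at least 1 site within 1 kb of a start. Of these, 34 had 3 or more. Fut11, a fucosyltransferase gene, had 14 within 1 kb (mean difference −25.2, range −30.0 to −20.9) in the authors' deposited table. By RefSeq position these sites are also within 2 kb of Sec24c. Bdh1, the mitochondrial enzyme that makes and uses the ketone body β-hydroxybutyrate, had 13 (mean −37.7, range −52.9 to −21.3) in the authors' deposited table. Sh3bp2, an adaptor protein gene, had 9 (mean −24.9), and the actin-binding protein gene Shroom3 had 7 (mean −28.9) in the authors' deposited table. Klhl33, a kelch-like family gene on chromosome 14, had 3 sites lower by more than most, at −55.3, −52.8 and −49.9 in the authors' deposited table. Fbxo40, an F-box gene known from muscle, had 3 (mean −43.8) in the authors' deposited table. Pax8, a paired-box transcription factor gene, had 6 (mean −26.8), Thpo, the hormone thrombopoietin made by hepatocytes, had 4 (mean −23.8) and the imprinted gene Nnat had 4 (mean −24.9) in the authors' deposited table. The sites of Thpo are shared with Chrd and those of Nnat with Blcap.

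The losses were mostly modest and their upper tail was long. Of the 6678 lower sites, 2968 (44.4%) were lower by 20 to 25 points, 1642 by 25 to 30, 1447 by 30 to 40, 581 by 40 to 60 and 40 by 60 or more. The percentiles 5 and 95 of the lower sites were −44.6 and −20.4 in the authors' deposited table. A q-value printed as 0 stood at 2620 sites (39.0%), and the smallest q-value above that was 5.58e-15. Both strands were alike, with 3275 sites on the plus strand (median −25.9) and 3446 on the minus strand (median −25.9) in the authors' deposited table. For 23 CpGs both strands were listed, and all 23 pairs had the same sign. The strands of a pair differed by a median of 5.71 points and at most 16.9, and 18 of the 23 pairs were within 10 points. A pair at Opn4 (the photopigment melanopsin) on chromosome 14 read −38.2 and −38.3, whereas a pair at Col4a2 (a chain of basement-membrane collagen) on chromosome 8 read −23.4 and −40.2 in the authors' deposited table. None of the 40 sites lower by 60 or more had its other strand listed.

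Differences of lower sites close together were correlated. Pearson's r was taken between the differences of neighbouring lower sites, with the higher sites left out. It was 0.584 at gaps of 1 to 10 bp (629 pairs) and 0.514 at 11 to 50 bp (1112 pairs). It was 0.290 at 51 to 200 bp (253 pairs) and 0.0473 beyond 10 kb (4207 pairs). The median absolute gap between neighbours changed little, from 4.36 points at 1 to 10 bp to 5.01 beyond 10 kb. These are descriptions across sites, and near neighbours can share sequencing reads. Joining sites within 1 kb of each other gave 4618 regions, of which 3408 held 1 site and 1210 held 2 or more. Those 1210 regions held 3313 sites (49.3% of all). All sites were lower in 1199 of them, all were higher in 10, and 1 was mixed. The mixed region (chr17:39843186-39843849) had 3 higher sites at 30.9, 21.8 and 29.0 and 1 lower site at −23.2 in the authors' deposited table, and it is in no coding gene.

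Losses were larger in denser regions. The median lower site was −24.2 where it stood alone, −27.5 in regions of 2 to 3 sites, −28.8 in regions of 4 to 9 and −33.4 in regions of 10 or more in the authors' deposited table. The share with a loss of at least 40 points rose with it, from 4.72% to 11.1%, 17.2% and 30.3%. Losses of at least 60 points made up 0.767% of lower sites that stood alone, 0.216% in regions of 2 to 3, 0.592% in regions of 4 to 9 and 1.72% in regions of 10 or more, where they were 5 sites. By number, 26 of the 40 stood alone, since lone sites are the most numerous. On chromosome 14, which carries Mat1a itself, 14 of the 17 such losses stood alone, and elsewhere 12 of 23 did. No DNA sequence of these mice was used. A difference in sequence between the groups at a listed CpG and a difference in methylation therefore cannot be told apart.

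**Figure D2:**
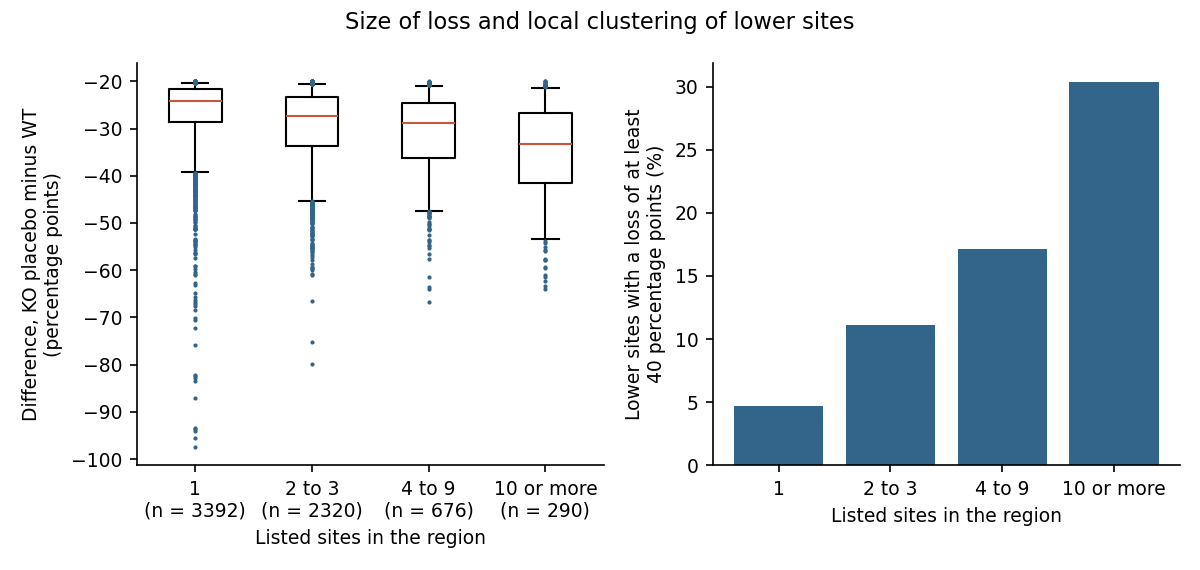
Left, difference of each lower site (y axis, percentage points, KO placebo minus WT) by the number of listed sites in its region (x axis). Boxes span the quartiles with the median in red, whiskers the percentiles 5 and 95, and points the sites beyond. Right, share of lower sites with a loss of at least 40 points, which is 4.72% for lone sites and 30.3% in regions of 10 or more. Region size counts only sites past the listing limit, so it is not independent of the size of the loss.

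Among the 18 regions of 10 or more sites (290 sites), 17 were assigned to a coding gene. The Nfix region (chr8:84784452-84785021, 570 bp) held 22 lower sites with a median of −39.98, and 11 of them were lower by at least 40 points in the authors' deposited table. Nfix is a nuclear factor I transcription factor gene. Its deepest site, at position 84784775, read −57.7, and the shallowest −20.01 in the authors' deposited table, so the difference ran almost to the listing threshold within 1 region. The Fbrsl1 region (chr5:110363046-110363789), in a gene of the Auts2 family linked to Polycomb complexes, was deeper. Of its 20 sites, 12 were lower by 50 points or more and the median was −51.3 in the authors' deposited table. In the Rab36 region (chr10:75050964-75051900) all 12 listed sites were on the plus strand. They formed 3 groups, and the pair in the second group read −53.4 and −45.7 against −20.9 to −34.8 in the group before it and −36.2 to −40.2 in the group after it in the authors' deposited table. Rab36 encodes a small GTPase of vesicle traffic. Hs3st3b1, a heparan sulfate sulfotransferase gene, had its region (chr11:63923391-63924246) outside the gene but within 2 kb. Its 10 sites ran from −25.0 to −45.3, and the 5 farthest from the gene were −45.3, −40.4, −35.6, −41.6 and −40.8 in the authors' deposited table.

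**Figure D3:**
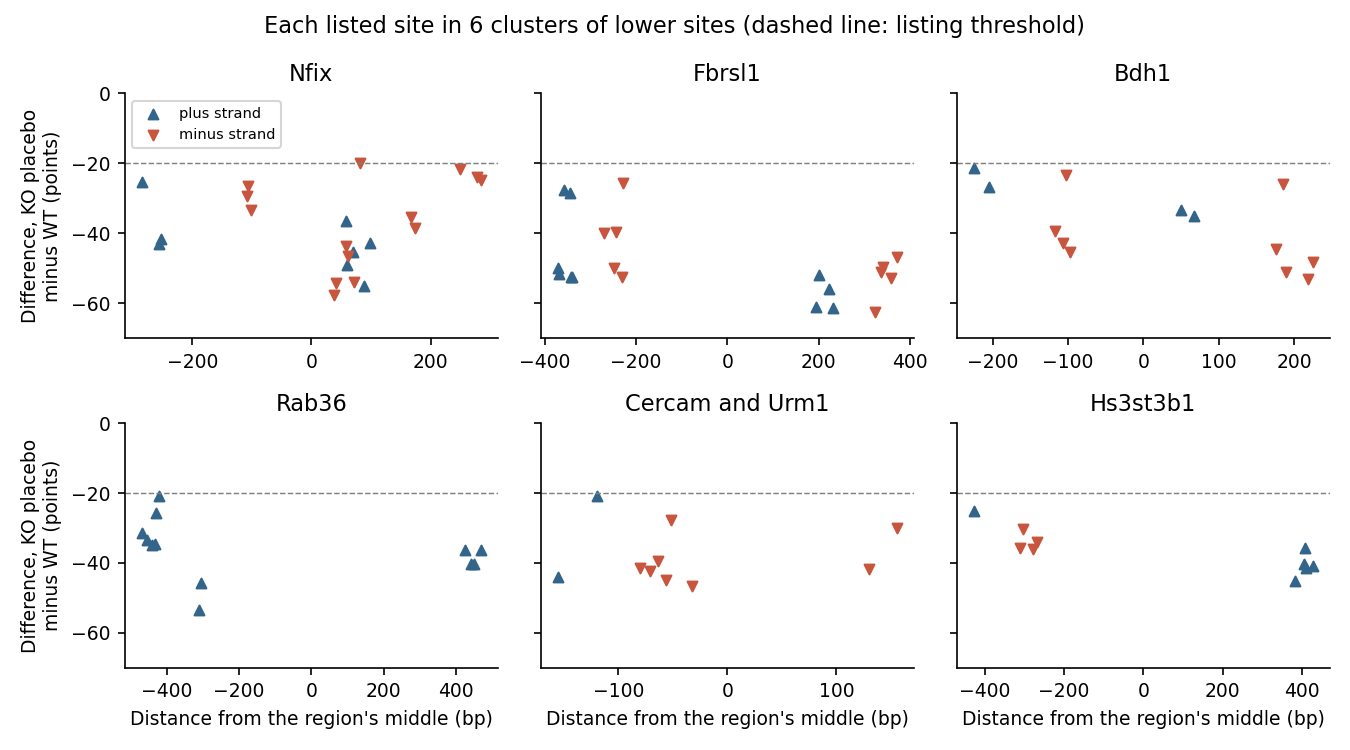
Difference of each listed site (y axis, percentage points, KO placebo minus WT) against its distance from the middle of the region (x axis, bp) in 6 regions of 10 or more sites, with the strand shown by colour and direction of the triangle. The dashed line marks the listing threshold of 20 points, above which no site can appear. Many close neighbours sit together, but others differ widely, such as adjacent listed sites at −28.4 and −52.5 in the Fbrsl1 region. The Fbrsl1 region also reaches the lowest values (−62.4).

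The largest region, with 48 sites in Mn1, a transcriptional regulator gene, had a median of −33.5, and that of Prob1 on chromosome 18 (29 sites) a median of −47.9 in the authors' deposited table. The Cercam and Urm1 region had a median of −41.6 and that of Bdh1 −39.2 in the authors' deposited table. Several others were shallower. The Usp49 region, in a histone H2B deubiquitinase gene, held 16 sites with a median of −29.3. The Mapk15 region, in a gene of an atypical MAP kinase, held 14 with a median of −28.9 in the authors' deposited table. Gal3st1, the sulfotransferase that makes sulfatide, had 12 sites within 212 bp (median −28.8), and Cyp26c1, a retinoic acid hydroxylase of the cytochrome P450 family, had 11 sites, all on the minus strand, with a median of −27.3 in the authors' deposited table. Rassf3, a Ras-association domain gene, and Cacna1b, the pore subunit of a neuronal calcium channel, had 10 each with medians of −29.3 and −30.1 in the authors' deposited table. The 1 region away from coding genes (chr4:82537419-82537704) had 10 sites with a median of −34.4 in the authors' deposited table. By RefSeq position it lies inside the long noncoding RNA gene Gm11266.

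Other genes had many sites scattered over several regions. Gse1, the gene of a protein found with corepressor complexes, had 24 sites in 12 separate regions, the most regions of any gene, with differences from −44.4 to −20.3 in the authors' deposited table. Prkce, protein kinase C epsilon, had 18 in 9 regions, and Zfhx3, a zinc-finger homeobox gene, had 13 in 8. Sh3pxd2a, an adaptor of invasive adhesions, had 12 in 8 and the GABA receptor subunit gene Gabbr2 9 in 8. Cmip, the gene of c-Maf-inducing protein, differed from these in depth: all 9 of its sites, in 6 regions, were between −48.5 and −32.2, and averaged −40.6 in the authors' deposited table. Tns1, the focal-adhesion protein tensin, had 9 sites in 6 regions (mean −34.9, range −45.9 to −27.0) in the authors' deposited table. Zmiz1, a coactivator gene on chromosome 14, had 7 in 4 regions, from −55.3 to −20.02 in the authors' deposited table. In all, 26 coding genes had sites in at least 5 regions and 150 in at least 3.

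Over all 21887 coding genes, 2745 had a listed site in the gene or within 2 kb (12.5%), of which 1540 had exactly 1 site and 33 had 10 or more. Long genes were hit more often: the share was 3.54% in the shortest of 5 length groups and 23.5% in the longest. Per Mb of gene the order was different, with 11.02 sites in the shortest group, 17.1 in the next and 2.86 in the longest. The median gene with a site was 35.5 kb long against 17.2 kb for all. For families of related genes the share with a site is therefore given beside the share among all coding genes of the same lengths. The median over the 2745 genes of the largest difference was −27.2 in the authors' deposited table. Grouped by role, median differences were close together, at −27.9 for sites of chromatin families, −26.9 for signalling, −26.9 for transcription factors, −26.5 for transport and metabolism, −25.5 for adhesion and matrix and −25.0 for channels and receptors in the authors' deposited table, beside −25.9 for all lower sites. No family was tested, and the numbers below are descriptions of the deposited list. Of the 65 families 44 stood above the share at their lengths, so standing above it is common. Families and lists were also chosen with earlier results of these data known, so a share above it is no independent finding.

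**Figure D4:**
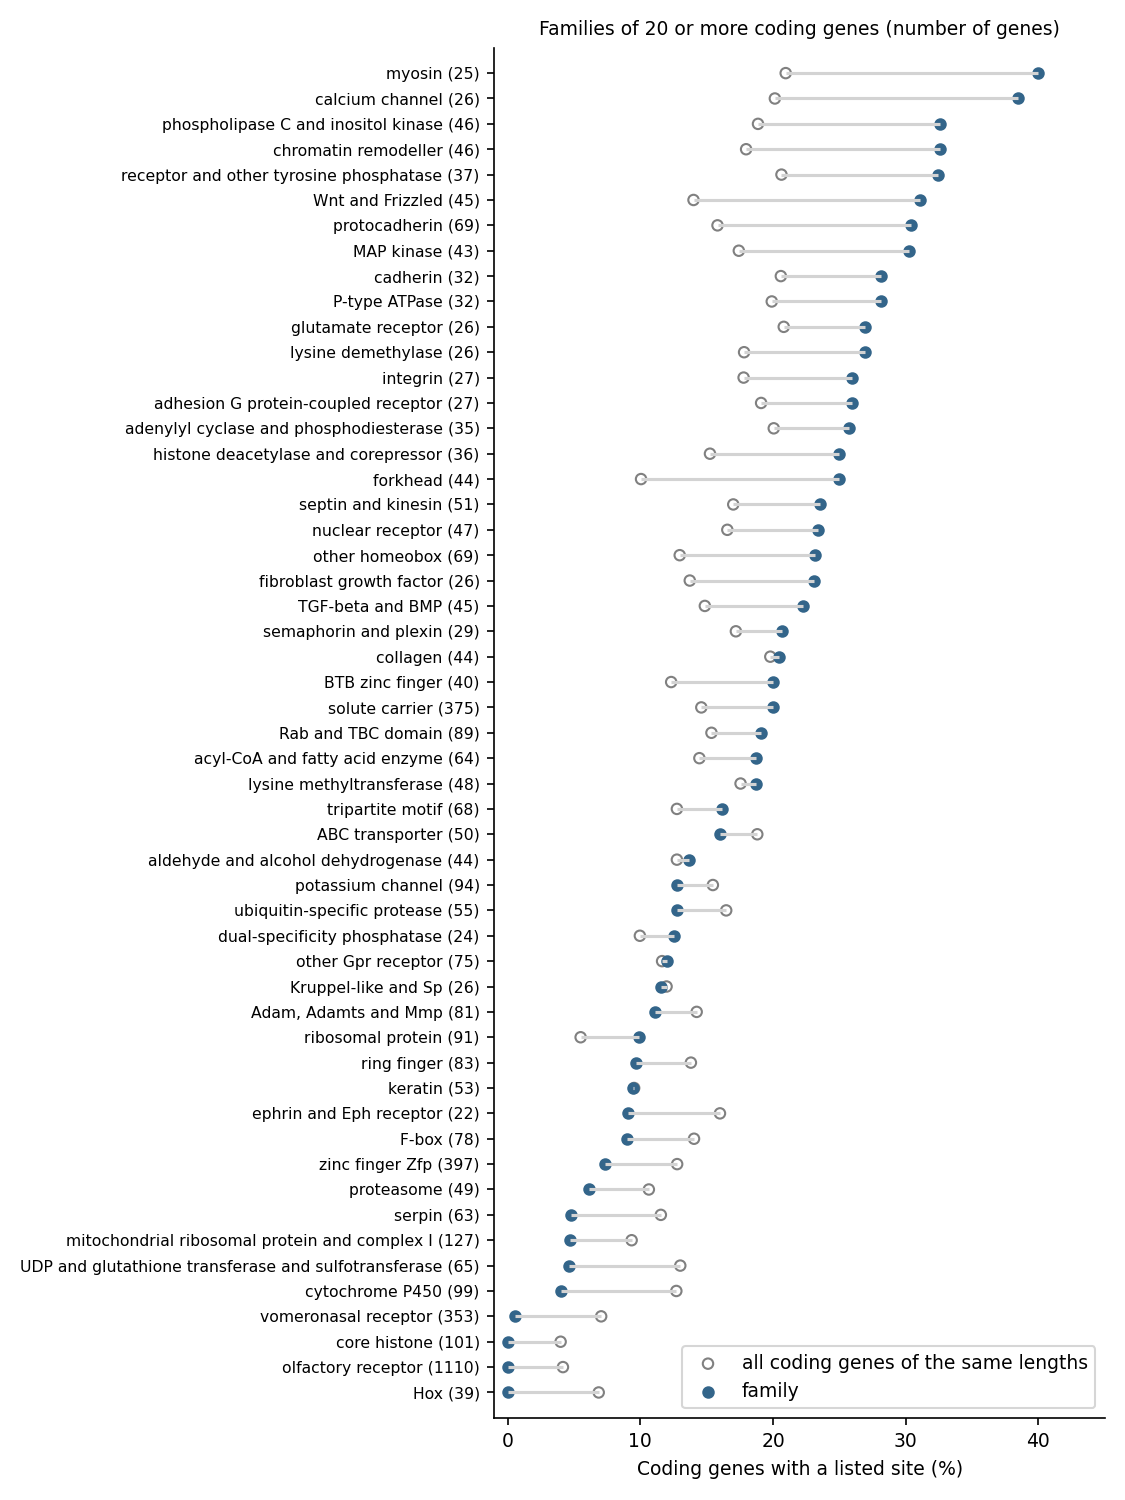
Share of coding genes with a listed site (x axis, percent) in families of 20 or more genes (filled points, number of genes in brackets) and among all coding genes of the same lengths (open points). Myosins and calcium channels stand highest (40% and 38.5%), and the olfactory receptor, core histone and Hox families are at 0.

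Transcription factor families differed in the share of genes with a site. Together the 13 families had a site in 90 of 723 genes (12.4%, against 12.7% at the same lengths), so as a class they were not above it. Of 44 forkhead genes 11 had a site (25%, against 10.1% at the same lengths), of 69 homeobox genes outside the Hox clusters 16 did (23.2% against 12.97%), and of 47 nuclear receptors 11 did (23.4% against 16.6%). None of 39 Hox genes had one, where 6.86% would at the same lengths, and 29 of 397 Zfp zinc-finger genes did (7.30% against 12.8%). The forkhead count rested partly on flanks, and 7 of the 44 had a site in the gene itself. Foxo3, a factor held in check by insulin signalling, had a site at −54.6 and another at −23.5 in the authors' deposited table. Foxn3, a repressor of the same family, had 6 sites, the deepest at −52.5, and Foxp1 had 8, the deepest at −39.7 in the authors' deposited table. Of the Smad genes, which carry signals of the TGF-beta superfamily into the nucleus, 3 of 8 had a site (37.5% against 20.04%). Smad6, an inhibitory member, had 9 in 6 regions (−46.0 to −20.3), Smad9 had 2 at −49.1 and −39.4, and Smad3 had 3 of which the deepest was −42.2 in the authors' deposited table. Nfib joined Nfix in the nuclear factor I family with 1 site at −45.2 in the authors' deposited table.

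Among nuclear receptors the sites were spread over several kinds of receptor. Esrrg, an estrogen-related receptor of energy metabolism, had 8 between −47.6 and −20.3 in the authors' deposited table. Nr1d2, a repressor of the circadian clock, had 2 at −45.1 and −40.8, and Rora, the clock activator that binds the same DNA element, had 3 of which the deepest was −37.1 in the authors' deposited table. Rara had 9 sites in 5 regions. Besides the CpG at its start printed above, they ran from −31.7 to −20.3 in the authors' deposited table. Meis1 (−39.6) and Lhx2 (−37.3), homeobox factors of development, had 2 sites and 1 site in the authors' deposited table. Gata6, a GATA factor of endoderm, had 6 sites between −31.1 and −21.2 in the authors' deposited table.

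Genes of chromatin regulators were hit often, and a single gene supplied most of their deep sites. In the 5 chromatin families, 42 of 159 genes had a site (26.4%, against 17.2% at the same lengths), and 18.5% of their 151 sites were lower by at least 40 points, against 9.24% of all listed sites. Fbrsl1 supplied 15 of these 28 deep sites, and without it the share was 9.92%. Prdm16, a SET-domain regulator of brown fat genes, had 14 with the deepest at −45.7 in the authors' deposited table. Smarcd3, a subunit of the SWI/SNF remodelling complex, had 10, all lying outside the gene and inside Chpf2, with the deepest at −40.9 in the authors' deposited table. Chd4, the motor of the NuRD complex, had 1 at −38.9, and Kdm6b, a demethylase of histone H3 lysine 27, had 2 with the deeper at −31.3 in the authors' deposited table. Core histone genes, which are short, had a site in 0 of 101 (3.99% at the same lengths).

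Signalling families were hit broadly. The 12 families counted here had a site in 128 of 488 genes (26.2%, against 17.0% at the same lengths). Wnt and Frizzled pathway genes had 14 of 45 (31.1% against 14.01%), led by Apc2 (−48.1), a relative of the Apc tumour suppressor, and the receptors Fzd5 (−44.3) and Lrp5 (−36.1) in the authors' deposited table. Phospholipase C and inositol kinase genes had 15 of 46 (32.6% against 18.9%), and 2 of them, Plcg2 and Plch2, carried higher sites. MAP kinase cascade genes had 13 of 43 (30.2% against 17.4%), and besides Mapk15 the deepest were Map3k20 at −40.3 and Map2k6 at −38.9 in the authors' deposited table. Of the TGF-beta and BMP genes 10 of 45 had a site (22.2% against 14.9%). Ltbp2, which encodes a matrix protein of the family that binds latent TGF-beta, had the deepest at −53.7, next to 3 sites between −23.1 and −21.2 in the authors' deposited table. Epha2, a receptor for ephrins, had 7 sites. The 4 inside 1 group read −51.2, −48.2, −43.8 and −45.8 and the other 3 read −26.7, −22.2 and −33.4 in the authors' deposited table.

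Adhesion, matrix and channel families spanned a wide range of shares. Adhesion and matrix families together had a site in 95 of 454 genes (20.9%, against 16.4% at the same lengths). Channel and receptor families had one in 51 of 1725 (2.96% against 6.54%). Laminins, the heterotrimers of basement membranes, had a site in 7 of 11 genes (63.6% against 20.6% at the same lengths), and myosins in 10 of 25 (40% against 20.95%). The deepest site of a laminin gene was in Lama5 (−35.1) in the authors' deposited table. Voltage-gated calcium channel genes had 10 of 26 (38.5% against 20.1%), with Cacnb3, a regulatory subunit, at −40.9 next to Cacna1b at −41.8 in the authors' deposited table. The 21 of 69 protocadherins (30.4% against 15.8%) rest on only 2 sites beside the gamma cluster, whose genes share their last exons. Neither site is in a gene body, and the count is 0 without the flanks. Celsr1, an atypical cadherin of planar polarity, had 1 site at −56.4 in the authors' deposited table. Odorant and pheromone receptors were nearly free of listed sites, with 0 of 1110 olfactory receptors (4.17% at the same lengths) and 2 of 353 vomeronasal receptors (0.567% against 7.05%). The sites of the latter were in Vmn2r11 (−24.4) and Vmn1r45 (−20.9) in the authors' deposited table.

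Solute carriers were above, detoxifying enzymes below and ABC transporters near the share at their lengths. Solute carriers had 75 of 375 genes with a site (20%, against 14.6% at the same lengths). Slc7a8, an amino acid transporter, had 2 sites at −59.9 and −44.6, and Slc22a23 had 3 with the deepest at −47.8 in the authors' deposited table. ABC transporters had 8 of 50 (16% against 18.8%). Abcc4, an exporter of cyclic nucleotides and bile acids, had 5. The deepest, a lone site on chromosome 14, read −60.3, and a region of 4 averaged −24.1 in the authors' deposited table. Whether the groups differ in DNA sequence at the lone site was not tested. Cytochrome P450 genes had 4 of 99 (4.04% against 12.7%), UDP-glucuronosyl, glutathione and sulfo-transferases 3 of 65 (4.62% against 13.01%), and serpins 3 of 63 (4.76% against 11.5%). Beside Cyp26c1 the P450 genes were Cyp4f40 (−30.2), Cyp7b1 (−27.7) and Cyp4f14 (−26.3), each with 1 site in the authors' deposited table. Many genes of these families, and the receptors above, stand in tandem arrays, where RRBS reads can be few or map to more than 1 copy, and the part of coverage in these low shares was not tested. Acyl-CoA and fatty acid enzymes had 12 of 64 (18.8% against 14.4%). Acad9 (−50.2), Acot5 (−46.2) and Acad11 (−42.1) each had 2 sites in the authors' deposited table. Aldh2, the mitochondrial enzyme that clears acetaldehyde, had 6 with the deepest at −43.0 in the authors' deposited table.

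Metabolic and liver lists held a few genes with several deep sites. In the list of methionine and folate cycle genes 7 of 32 had a site (21.9% against 14.2% at the same lengths). Shmt2, the mitochondrial enzyme that moves a carbon unit from serine to folate, had 7 sites in 1 region (chr10:127519654-127520138). They read −40.7, −46.1, −44.9, −42.0, −44.7, −43.4 and −38.4 in the authors' deposited table, a narrower range than in the larger regions above. Bhmt2 (−35.8), a methyltransferase that remakes methionine, and Gnmt (−26.6), which uses up excess SAMe, had 1 each in the authors' deposited table. In the lipid and sterol list 12 of 42 had a site (28.6% against 13.7%). Srebf2, the master regulator of cholesterol synthesis, had 5, of which 4 in 1 cluster read −46.7, −54.0, −26.0 and −54.7 and a separate one −38.8 in the authors' deposited table. Fgf21, a liver hormone of fasting, had 1 at −37.6 in the authors' deposited table. By position it is the same CpG as that in the Fut1 promoter window. In the list of insulin and energy signalling 11 of 30 had a site (36.7% against 18.8%), among them the receptor gene Insr with 3 (−44.2, −30.2 and −21.3) and its substrate gene Irs1 with 2 (−46.6 and −21.0) in the authors' deposited table.

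Cell type marker lists were small. All but that of lymphocytes stood above the share at their lengths, those of stellate and endothelial cells only slightly. The counts were 6 of 23 hepatocyte genes (26.1% against 11.1% at the same lengths), 4 of 12 cholangiocyte (33.3% against 12.4%), 3 of 20 stellate (15% against 12.5%) and 3 of 15 endothelial genes (20% against 16.4%). They were 3 of 15 for Kupffer cells (20% against 11.8%) and 1 of 17 for lymphocytes (5.88% against 12.1%). Krt18, a keratin of epithelial cells of the liver, had 5 sites between −49.0 and −20.6 in the authors' deposited table. Csf1r, the macrophage growth factor receptor, had 2 listed CpGs at −51.2 and −25.0 in the authors' deposited table. Eng, an endothelial receptor of the TGF-beta superfamily, had 3 with the deepest, shared by RefSeq position with its neighbour Fpgs, at −38.6 in the authors' deposited table. The part of cell composition in these values was not tested.

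Chromosomes differed in number of sites per Mb and in the share of deep losses, and little in the median difference. The autosomes held from 1.37 sites per Mb (chromosome 3) to 4.69 (chromosome 11), with chromosome 19 at 4.29. Over the 19 autosomes sites per Mb went with coding genes per Mb (Pearson's r 0.702, Spearman's rank correlation 0.768, a description). Autosomal median differences stayed between −26.7 (chromosome 18) and −24.5 (chromosome 13) in the authors' deposited table, and that of chromosome X was −24.1. The share of sites lower by at least 40 points spread more widely, from 3.15% on chromosome 13 and 3.802% on chromosome 19 to 16.4% on chromosome 14 and 18.1% on chromosome 18. On chromosome 18 the 29 sites of Prob1 supplied 21 of the 39 deep sites, and without them the share was 9.68%. Chromosome X had 0.340 sites per Mb, with 23 of its 966 coding genes hit (2.38%). Its densest region was in Tro (chrX:150656963-150657175), a member of the Mage family, with 4 sites between −50.6 and −42.0 and 1 at −20.5, and Foxo4 on the same chromosome had 1 site at −45.0 in the authors' deposited table. Chromosome Y had 1 listed site.

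**Figure D5:**
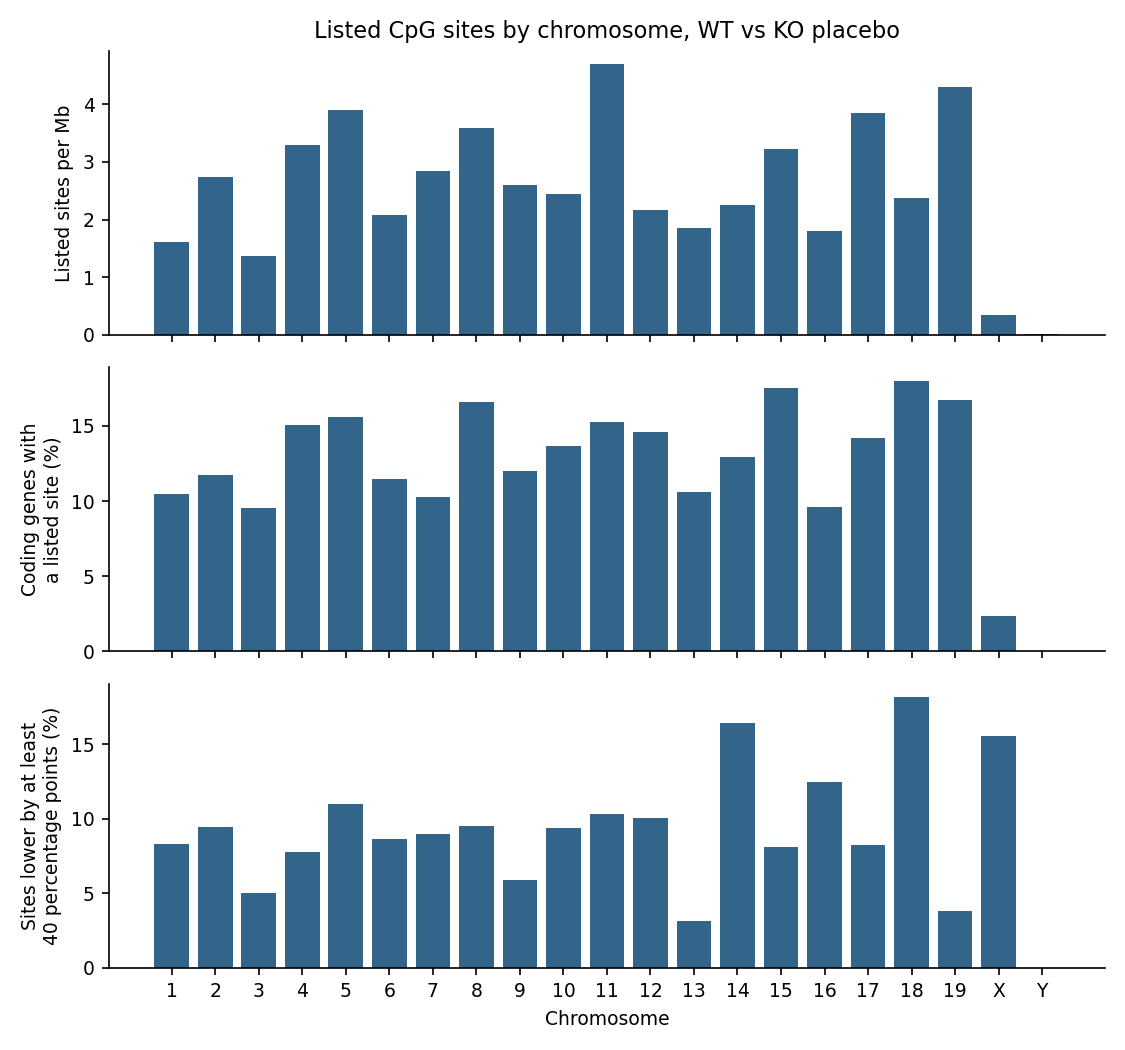
For each chromosome (x axis), listed sites per Mb (top), share of coding genes with a listed site in percent (middle) and share of sites lower by at least 40 percentage points (bottom). Chromosomes 11 and 19 have the most sites per Mb, chromosomes 14 and 18 the largest share of deep losses, and chromosome X few sites. No coding gene of chromosome Y had a site.

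The 1 Mb window with the most regions, 22 regions with 38 sites, was chr8:120000001-121000000, which holds Gse1 and the interferon regulatory factor gene Irf8. It was followed by chr2:167000001-168000000 with 20 regions around the phosphatase gene Ptpn1. Of the 1427 windows with a site, 71 had 10 or more regions and the median had 2. Outside coding genes, 490 of 12727 long noncoding RNA genes held a site (3.85%), and 277 of these had none near a coding gene. The largest losses away from coding genes were single CpGs, and 3 of them on chromosome 14 read −93.7, −82.8 and −82.4 in the authors' deposited table. Whether the groups differ in DNA sequence at these CpGs was not tested.

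No listed site fell inside any of 1228 miRNA genes, and 44 (3.58%) had one within 2 kb. Shown are 4 of them, picked after their values were seen for a near site or a host region described above, with the mature sequence from RefSeq (GRCm38.p6) and the seed, bases 2 to 8, in capitals. No seed is shared among them.
mmu-miR-219a-5p: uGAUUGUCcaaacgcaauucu
mmu-miR-455-5p: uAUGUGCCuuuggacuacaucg
mmu-miR-671-5p: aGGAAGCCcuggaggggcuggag
mmu-miR-33-5p: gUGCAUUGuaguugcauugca
Mir219a-2, on the minus strand of chromosome 2 within Cercam and near Urm1, had a region of 10 lower sites beginning 10 bp from the hairpin (chr2:29845737-29846048). They averaged −37.9 and the deepest read −46.5 in the authors' deposited table. Mir455, inside the collagen gene Col27a1, had a CpG 15 bp away and 2 sites averaging −27.1 in the authors' deposited table. Mir671 lies inside the region of 10 sites at Chpf2 and Smarcd3, 184 bp from the nearest. Mir33, which lies in Srebf2 and represses cholesterol export genes, had the 4 clustered Srebf2 sites within 2 kb, the nearest 1564 bp away. Whether any of these RNAs changed in amount was not measured here.

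Gains were rare: 17 of 21887 coding genes (0.0777%) had a higher site, against 12.5% with a lower one. Of these 17 genes, 6 had both higher and lower sites, and in each of the 6 the higher and lower sites lay in different regions. Iffo2, an intermediate filament family gene, had 3 higher (22.3, 26.5 and 33.1) in 1 region and 3 lower ones (−28.4, −30.9 and −30.9) elsewhere in the gene in the authors' deposited table. Syne1, which links the nucleus to the cytoskeleton, had 2 higher sites (24.5 and 23.5) and 2 lower (−21.1 and −25.1), and Tshz2, a zinc-finger homeobox gene, had 2 higher (20.3 and 23.3) and 3 lower (from −26.0 to −21.6) in the authors' deposited table. Zmynd8, a chromatin reader, had 1 higher (23.8) and 3 lower, the deepest at −34.8 in the authors' deposited table. The overlapping genes Gnaz and Rsph14 shared 1 of each. The other genes with a gain had only higher sites. Gdf10 (26.0), a growth factor of the BMP family, Guca1b (23.6), Kcna6 (22.9), a potassium channel gene, Haus4 (20.8), Plch2 (20.5) and Zfp993 (20.02) had 1 each in the authors' deposited table. Away from coding genes, the 3 higher sites of chromosome 12 (chr12:32929979-32930014) read 25.1, 33.0 and 32.4 in the authors' deposited table.

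A further group, MAT1A KO mice of the same age given SAMe (5 mice), was set by the authors against the same wild-type animals, so its values are given beside those of placebo and are no separate measurement. Of the 6721 sites, 3707 were also listed between wild type and the SAMe group. For the others, a difference below the thresholds and a lack of coverage cannot be told apart. The genes that follow are picked examples. At the deepest Nfix site the authors' deposited tables gave −57.7 for placebo and −59.5 for SAMe, and at that of Bdh1 −52.9 and −52.2. At the 3 Klhl33 sites SAMe read −64.9, −57.0 and −56.3 where placebo read −55.3, −52.8 and −49.9 in the authors' deposited tables. Jarid2, a Polycomb cofactor gene, had 5 sites within 23 bp between −26.8 and −23.9 that are not in the SAMe table, and all 5 are in the authors' deposited table of placebo against SAMe. At Hs3st2, the gene of another heparan sulfate sulfotransferase, the authors' deposited tables gave a gain of 20.3 for placebo and −20.6 for SAMe relative to placebo.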

How the data were processed

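DNA from the livers of 8 untreated MAT1A WT and 6 placebo-treated MAT1A KO mice was cut with MspI and TaqαI and bisulfite sequenced, per the labels' protocols. Per the submitters' processing notes, the tools were CASAVA 1.8.2, Trim Galore, Bismark and methylKit and the build was mm10. Their settings and the kind of test are not given in the sources used here. Of each listed CpG the authors deposited a p-value, a q-value and a methylation difference in percentage points. Means and medians of these differences were computed here, and genes were assigned from RefSeq positions. Levels, coverage and values per animal were not used here, so no test between animals could be made.

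Sites were assigned to 21887 coding genes of the RefSeq table (GRCm38.p6) when inside it or in its 2 kb flanks, and joined into regions within 1 kb. Starts and strands came from RefSeq promoter windows of 300 bp, which cover 17492 coding genes and not chromosome 18. All 87 pairs of a listed site and a window fell on a CpG of the sequence. Families were found by gene symbol (65 families), and 12 lists held 318 entries, of which 311 matched. The members and lists were chosen with earlier results of these data known. Ribosomal S6 kinases were taken out of the ribosomal protein family after their values were seen. For the share at the same lengths, coding genes were split into 5 groups by length and the groups' shares averaged over the family's members. The longest group runs from 57.1 to 2390 kb, so lengths are matched coarsely. Olfactory and vomeronasal receptors, nearly free of listed sites, are part of this background.

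Named genes were the 15 with the most sites, the 12 with the largest loss outside chromosome 14 and 8 on it, every gene with a gain, up to 4 per family or list with the largest difference, the densest region of each chromosome, and genes with 3 or more sites within 1 kb of a start. Not all are described, and results that need items withheld for evaluation are not reported here. Genes with sites in many regions (Gabbr2, Sh3pxd2a, Cmip, Tns1, Zmiz1) and the genes around the miRNAs were picked after their values were seen. Assignment and joining were tested on simulated data. Python 3.11.15, pandas 2.3.3, numpy 2.4.6, scipy 1.17.1 and matplotlib were used.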

Additional observations from a re-analysis of the deposited data

Results flagged for a closer look

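At the largest difference of 10 named genes, the placebo-treated and SAMe-treated knockout mice also differed in the authors' deposited table of those 2 groups, which has the placebo animals in common with the comparison above. These are the authors' listed differences, and no further test of the difference between the groups was made. The naming rule was met by 324 genes, and of all 6721 listed sites 81 were also listed between placebo and SAMe. Each site was picked for its size in placebo, whose animals enter both differences, so the 2 signs are not independent. SAMe minus placebo was positive at 8 of the 10 sites, each lower in placebo than in wild type. It was 33.8 points at Gpr180 on chromosome 14 and 34.8 at Jarid2 on chromosome 13 in the authors' deposited table. It was 26.4 at Enpp5, an ectonucleotidase family gene, 24.4 at Vmn2r11 and 22.4 at Rhobtb2 on chromosome 14 in the authors' deposited table. It was 20.9 at Nav2, a neuron navigator gene, 20.4 at Adra1a on chromosome 14 and 20.4 at Prdm16 in the authors' deposited table. The sites of Gpr180, Rhobtb2, Adra1a, Enpp5 and Nav2 each stood alone in their region. Whether the groups differ in DNA sequence there was not tested. SAMe minus placebo was negative at the other two, with −22.8 at Adamts17, a metalloprotease gene already lower in placebo (−44.9), and −20.6 at Hs3st2, which was higher in placebo (20.3), in the authors' deposited table. At Vmn2r11 the differences were equal in size, −24.4 for placebo minus wild type and 24.4 for SAMe minus placebo in the authors' deposited table.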

How the results depend on the processing

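A q-value limit of 0.01 removed no site, since the largest listed was 0.00610. The share of lower sites was 99.4% as deposited and between 99.4 and 99.5% with chromosome 14 left out, strands merged, 1 site per region or a difference of at least 25 points. That limit of 25 points cut coding genes with a site from 2745 to 1716, regions from 4618 to 2519 and distinct CpGs from 6698 to 3718, as 44.4% of lower sites lay between 20 and 25. Asking for at least 2 sites left 1205 coding genes. Gene bodies alone gave 2375 and a 5 kb flank 3205, and joining within 200 bp or 5 kb gave 4711 or 4433 regions. No paired analysis was possible because the labels carry animal codes rather than replicate numbers and the table has no values per animal. Leaving out an animal was not possible for the same reason. For the family counts and the site counts of the 15 genes with the most sites, 275 recomputed values stayed within 1.5 times of the value as deposited and 95 did not, mostly under the limits of 25 points and of 2 sites. The forkhead share fell from 25% to 15.9% with gene bodies only, and the protocadherin share from 30.4% to 0. That of all coding genes went from 12.5% to 10.9%. At 25 points the glucuronosyl, glutathione and sulfo-transferases had no gene left and MAP kinase genes fell from 30.2% to 16.3%. All coding genes fell from 12.5% to 7.84% under the same limit. Depth is unknown, so which losses coverage would limit was not tested.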
